A study of Mus musculus with 4 samples.

Results

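Both-type barcodes are cell barcodes of the adult mouse stria vascularis that held RNA of marginal cells and RNA of intermediate cells in like amounts. The stria vascularis is the tissue of the cochlear lateral wall that keeps the endolymph rich in potassium. Members were chosen on measured values. A barcode needed 200 or more detected genes, Malat1 at 1% or more of its unique molecular identifiers (UMIs), 5 or more UMIs of 4 marginal genes (M), 5 or more UMIs of 4 intermediate genes (I), and a ratio of M to I above 1/3 and below 3. Malat1 is a nuclear long noncoding RNA, so its limit keeps barcodes that hold RNA of a nucleus. The rule found 74 members among the 3330 barcodes of the 3 whole-cell captures, which is 2.22% of all barcodes and 5.10% of the 1452 barcodes that passed the limits on genes and Malat1.

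Marginal cells are the epithelial cells that face the endolymph and secrete potassium into it through channels of Kcnq1 and Kcne1. Intermediate cells are melanocyte-like cells of neural crest origin that lie beneath them and carry the Kcnj10 potassium channel. Membranes of the 2 cell types are closely folded into one another. A barcode with RNA of both can in principle come from 2 cells in 1 droplet or from a cell with an attached piece of its neighbour. It can also come from a cell that makes both sets of RNA.

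All samples came from wild-type CBA/J mice at postnatal day 30, with about 12 animals pooled for a whole-cell suspension and about 10 for the nuclei, per the labels, although the numbers of mice stated in different places of the study's text do not all match these. No genotype or treatment was compared. The total was 2811309 UMIs in 392 barcodes of capture 1, 8113494 in 1358 of capture 2, 8340882 in 1580 of capture 3, and 22332501 in 11057 barcodes of the single nucleus capture. The captures share few barcode sequences (2 between captures 1 and 2, 6 between captures 2 and 3, and 0 between captures 1 and 3), and no barcode sequence was a member in more than 1 capture.

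Members were set beside a marginal reference and an intermediate reference from the same captures. A reference barcode passed the same limits on genes and Malat1, had 10 or more UMIs of M and I together, and held one set at 3 or more times the other. There were 83 marginal reference barcodes and 674 intermediate ones. Members numbered 8, 39 and 27 in captures 1, 2 and 3. Of all barcodes in the 3 groups they were 6.5% (exact 95% binomial interval 2.85 to 12.4%) in capture 1, 9.73% (7.01 to 13.1%) in capture 2 and 8.79% (5.88 to 12.5%) in capture 3. These intervals overlap, and they cover counting error only. In the nuclei the rule found 177 barcodes, 5.65% (4.86 to 6.51%) of 3135.

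The genes of the rule describe the choice and are not a result. The marginal set was Lrp2, the endocytic receptor megalin (chr2:69424340-69586065, minus strand, GRCm38), Kcnq1, the pore subunit of the potassium channel, Esrrb, an orphan nuclear receptor, and Atp13a5, a P5-type ATPase. The intermediate set was Met, the hepatocyte growth factor receptor (chr6:17463800-17573980, plus strand), Pax3, a neural crest transcription factor, Nrp2, a semaphorin co-receptor, and Pde1c, a calmodulin-dependent phosphodiesterase. Every member had a Lrp2 UMI and a Met UMI. Atp13a5 was found in 45.9% of members and 85.5% of marginal reference barcodes, while Pax3 was found in 54.1% of members and 62.8% of intermediate ones. Median M was 23.5, 11 and 9 UMIs in the members of captures 1, 2 and 3, against 60.5, 46 and 43 in the marginal reference. Median I was 22.5, 17 and 14 UMIs, against 21, 16 and 15 in the intermediate reference. The rule bounds M and I in members and references alike, so nothing is read from these medians.

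Members filled the range between the limits. Of the 74, 43 had M below I and 31 had M at or above I. The ratio was above 1/3 and below 1/2 in 17, from 1/2 to 2 with both ends included in 47, and above 2 and below 3 in 10. Just outside the limits, 12 barcodes with both sets at 5 or more had a ratio of 1/4 to 1/3 and 12 had a ratio of 3 to 4. The limit of 5 UMIs touched few barcodes, since 4 members had a smaller set of exactly 5 UMIs and 3 barcodes just below it had 4.

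**Figure D1:**
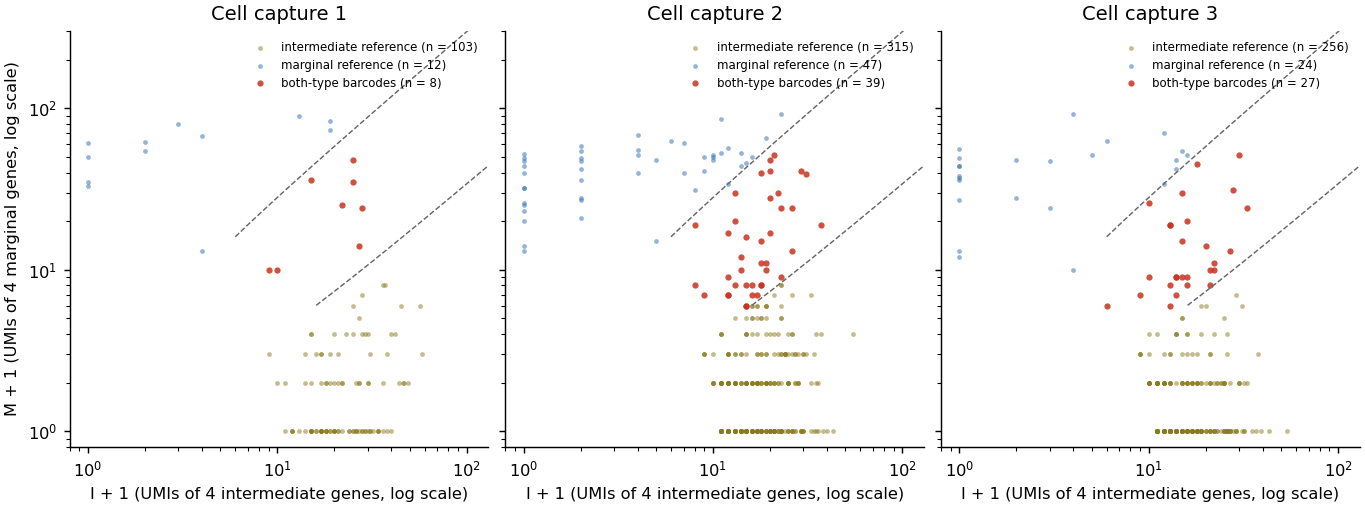
UMIs of the 4 marginal genes (M + 1, y axis, log scale) against UMIs of the 4 intermediate genes (I + 1, x axis, log scale), 1 point per barcode and 1 panel per whole-cell capture; dashed lines mark ratios of 3 and 1/3. The 74 members (red) lie between the references, with 43 of them below a ratio of 1.

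The marginal reference was itself mixed in part. Over 31 genes that the rule did not use (13 marginal and 18 intermediate), 26 of its 83 barcodes held at least 50% of the median marginal list UMIs of the marginal reference and at least 50% of the median intermediate list UMIs of the intermediate reference. Only 2 of 674 intermediate reference barcodes did so. References in which one set was at least 10 times the other (54 marginal and 558 intermediate barcodes) were therefore added after the data were seen. In this stricter marginal reference, 3 of 54 barcodes reached 50% of the intermediate list.

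Members held more UMIs than an intermediate reference barcode and fewer than both references together. Their median was 15866.5 UMIs in capture 1, 11496 in capture 2 and 11411 in capture 3. The marginal reference had 10804, 11251 and 11271.5 UMIs, and the intermediate reference 10546, 8345 and 8156.5. Members were thus above the marginal reference by a clear margin in capture 1 only, and above the intermediate reference in all 3. As a mean over captures, members had 117 ± 26.1% (SD, n = 3) of the marginal median, 143 ± 6.79% of the intermediate median and 63.9 ± 9.02% of the sum of both. Without mitochondrial genes the order against the marginal reference turned in captures 2 and 3. Members then had 11388, 7649 and 6766 UMIs, against 9282, 7776 and 7848.5 in the marginal and 6680, 4915 and 4792.5 in the intermediate reference. Against the stricter references, with all UMIs, the percentages were 140 ± 11.1%, 154 ± 16.6% and 73.2 ± 6.65%. The rule needs at least 10 UMIs in 8 genes and so sets part of this depth. With 3 captures, the exact permutation test of group labels within captures cannot go below a two-sided p of 0.25, which it gave for the comparisons of all UMIs with each reference and with their sum.

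Within the members, UMIs ran from 4521 to 20904 with a median of 11584.5. Only 1 of 74 exceeded the summed medians of the references of its capture, and 45 exceeded the larger of the 2 medians. The 31 members with M at or above I had a median of 12782 UMIs and 3435 genes, and the 43 with M below I had 11319 UMIs and 2888 genes. Capture 1 did not share this order, with medians of 15321.5 UMIs in its 6 members with M at or above I and 16900 in the other 2.

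Malat1 did not add up to the sum of both references. Median Malat1 was 226.5, 297 and 226 UMIs in members of captures 1, 2 and 3. The marginal reference had 390.5, 244 and 269, and the intermediate reference 425, 372 and 243. Members had 40.04 ± 10.8% (SD, n = 3) of the summed medians and were below the intermediate reference in all 3 captures. Against the stricter references the share was 40.9 ± 11.3%. Of the 74 members, 5 exceeded the summed Malat1 medians. The limit of 1% on Malat1 applies to members and references alike.

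In nuclei the same rule gave other proportions. Both-type nuclei had a median of 2639 UMIs, beside 1654 in marginal and 1827 in intermediate reference nuclei, or 75.8% of the sum. Their median Malat1 was 445 UMIs, beside 216 and 404, or 71.8% of the sum. There was 1 nucleus capture and no replicate, so cells and nuclei were not compared by a test.

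**Figure D2:**
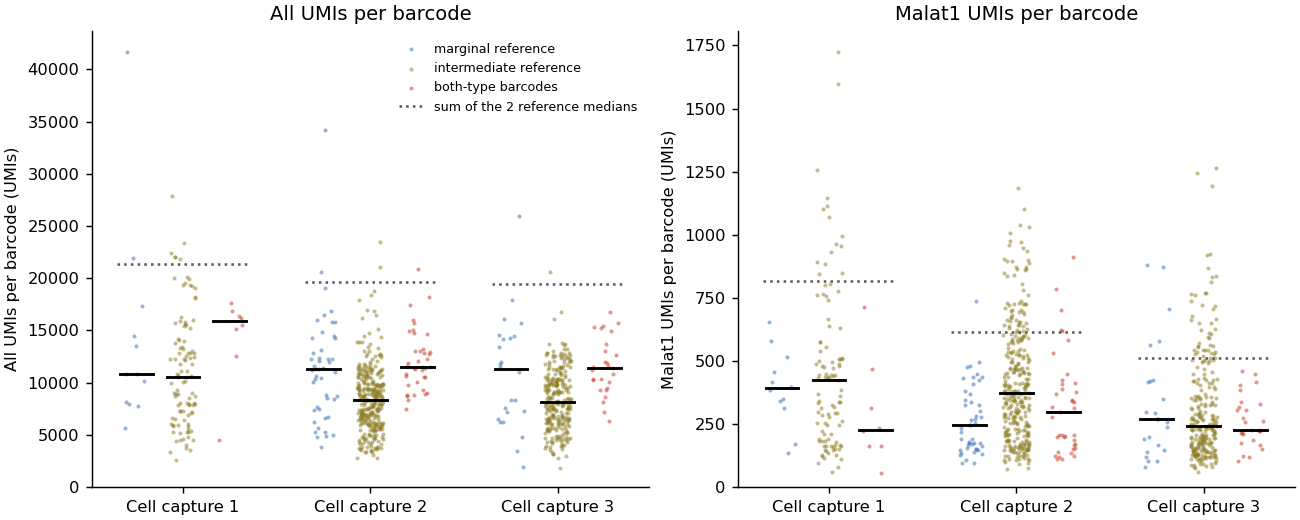
All UMIs (left) and Malat1 UMIs (right) per barcode on linear axes, by whole-cell capture and group; points are barcodes, black bars medians, and dotted lines the sum of the 2 reference medians of the capture. Member medians stand at 58.7 to 74.3% of the dotted line for all UMIs and at 27.8 to 48.2% for Malat1.

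Members had a median of 4039, 3028 and 2870 detected genes. The marginal reference had 3278.5, 3079 and 3067.5, and the intermediate reference 2682, 2197 and 2174.5. With each barcode thinned to 2000 UMIs, members had 947, 856 and 850 genes. In every whole-cell capture this was below the marginal reference (1050.5, 960 and 998) and above the intermediate reference (838, 806 and 800). Total UMIs were equal in this comparison, but the mitochondrial share was not. RNA of the mitochondrial genome made up a median of 30.03, 34.6 and 36.5% of member UMIs, near the intermediate reference (31.9, 35.8 and 38.6%) and above the marginal one (17.4, 26.3 and 20.0%). Thinned both-type nuclei had 1121.5 genes, above both marginal (1045) and intermediate (977) reference nuclei. Only nuclei with 2000 or more UMIs entered, which were 140 of 177 both-type, 798 of 2305 marginal and 287 of 653 intermediate ones. In the cell captures nearly all barcodes entered, so the 2 comparisons are not alike.

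Genes outside the rule carried both types' RNA in the members, unequally. The marginal list reached a median of 108, 65 and 78 UMIs per member, which is 52.3, 38.2 and 46.4% of the marginal reference. Intermediate reference barcodes held 11.1, 11.2 and 11.9% of that level. The intermediate list reached 256, 175 and 138 UMIs per member, which is 80.0, 91.1 and 86.5% of the intermediate reference, while marginal reference barcodes held 10.3, 26.0 and 13.2%. A typical member held most of the intermediate list of an intermediate barcode and 45.7 ± 7.06% (mean over captures, SD, n = 3) of the marginal list of a marginal one. The rule sets part of this inequality. Median M (60.5, 46 and 43 UMIs) and median I (21, 16 and 15) of the references stand near the ratio limit of 3, which leaves out barcodes with more marginal RNA. Without Slc12a2, its most abundant gene, the marginal list fell to 33.8%, and without Dct the intermediate list rose to 103%.

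Members varied in this. Both lists were at 50% or more of their references in 29 members, the intermediate list alone in 39, the marginal list alone in 3, and neither in 3. Only 3 members reached 100% of both. In nuclei the medians were 92.9% of the marginal and 82.5% of the intermediate reference, and 128 of 177 nuclei had both lists at 50% or more, as did 156 of 653 intermediate reference nuclei, whose median marginal list was 28.6% of the marginal one. These lists follow the same cells as the rule and are given as a description.

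**Figure D3:**
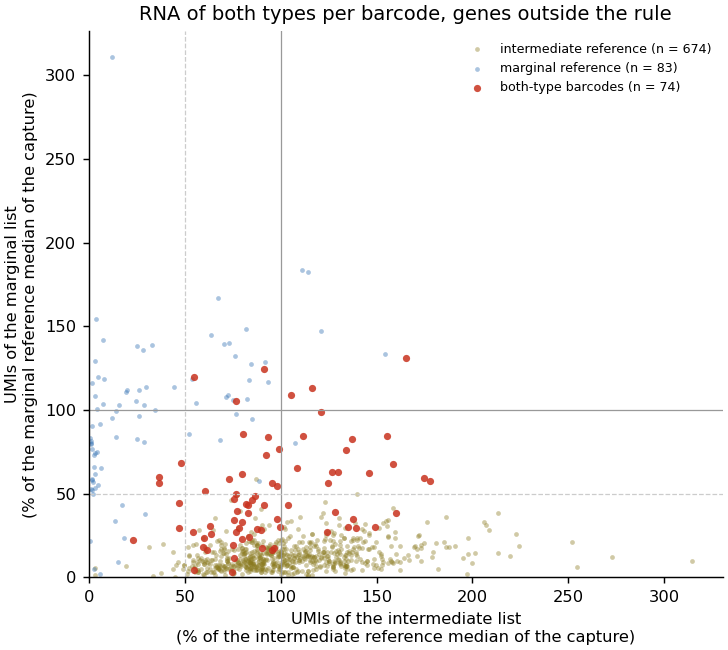
UMIs of the 13-gene marginal list (y axis) against the 18-gene intermediate list (x axis) per barcode, each as a percentage of the median of its own reference in the same capture; solid lines mark 100% and dashed lines 50%. Of the 74 members (red), 29 lie beyond both dashed lines and 39 only beyond that of the intermediate list, and 26 marginal reference barcodes (blue) also lie beyond both.

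Single genes showed the same order. Kcne1, the accessory subunit of the Kcnq1 channel, stood at 628, 617 and 535 CPM (UMIs of the gene scaled to a common library total) in the summed members of captures 1, 2 and 3. It stood at 1759, 1368 and 1289 CPM in the marginal and 97.0, 105 and 85.6 CPM in the intermediate reference. The groups did not overlap, and the log2 fold change of members was -1.09 against marginal (SE 0.11, edgeR, adjusted p = 1.2e-10) and 2.44 against intermediate (SE 0.12, adjusted p = 4.7e-23). These signs, and largely the lack of overlap, follow from how members were chosen.

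Atp1b2, a beta subunit of the Na,K-ATPase, was at 2336, 1558 and 1499 CPM in members, 5170, 4627 and 5138 in the marginal reference and 114, 140 and 119 in the intermediate one. Slc12a2, the sodium-potassium-chloride cotransporter NKCC1, was at 4716, 4305 and 5130 CPM in members, against 6793, 7583 and 8266 and against 2241, 2278 and 2535. Both genes lay between the references in every capture.

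Among intermediate genes, Kcnj10, the Kir4.1 potassium channel, was at 2249, 1916 and 1691 CPM in members, 700, 757 and 495 in the marginal and 2682, 2113 and 2123 in the intermediate reference. Dct, a melanin synthesis enzyme, was at 11000, 9096 and 7778 CPM, against 3670, 4044 and 2629 and against 19879, 15903 and 12612. Tyr, tyrosinase, was at 846, 702 and 839 CPM, against 194, 210 and 180 and against 1113, 918 and 1198. Members were again between the references and nearer to the intermediate one for Kcnj10 and Tyr.

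Across all 6778 genes that could be tested, 416 (6.14%) were higher and 305 (4.50%) lower in members than in the marginal reference. Against the intermediate reference, 571 (8.42%) were higher and 373 (5.50%) lower (edgeR quasi-likelihood test, adjusted p under 0.05). Without capture 3 the counts were 210 and 122 against marginal, and 383 and 179 against intermediate. With DESeq2 they were 229 and 161, and 396 and 129. Of the 12 marginal list genes tested, 0 were higher and 9 lower than in the marginal reference (median log2 fold change -1.23 beside 0.01 over all genes), and 10 were higher and 0 lower than in the intermediate reference (median 2.95, beside -0.00 over all genes). Of the 15 intermediate list genes tested, 12 were higher and 0 lower than marginal (median 1.76), and 0 were higher and 11 lower than intermediate (median -0.68). Without TMM scaling the median of all genes shifted by -0.19 against marginal and by 0.19 against intermediate on the log2 scale, and the splits became 268 higher and 600 lower, and 866 higher and 171 lower.

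A gene above both references, or below both, is not what the rule fixes. There were 13 above (0.192% of genes tested) and 15 below (0.221%), each with an adjusted p under 0.05 in both contrasts. With DESeq2 these were 0 and 5. Without capture 3 they were 0 and 4, without capture 1 they were 5 and 7, and with the stricter references 48 and 37. The log2 fold changes that follow are given against marginal and then against intermediate.

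Ghitm, an inner mitochondrial membrane protein, was above both. It was at 357, 364 and 426 CPM in members, 147, 304 and 226 in the marginal and 203, 199 and 241 in the intermediate reference, so the groups did not overlap. The log2 fold changes were 0.84 (SE 0.17, edgeR, adjusted p = 0.00049) and 0.63 (SE 0.15, adjusted p = 0.0023). Kif1c, a kinesin motor, was at 261, 182 and 199 CPM in members and at most 135 CPM in any reference sum, with log2 fold changes of 1.00 and 0.60. Ids, the lysosomal iduronate sulfatase, was at 122, 93.0 and 92.9 CPM in members and at most 65.0 CPM in any reference sum (1.17 and 0.55).

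The other named genes above both were rarer or changed less. Zfp367, a zinc finger factor, was at 78.4, 46.5 and 51.2 CPM and had the largest changes of the 10 (1.52 and 0.91) on 47 member UMIs. Rhot2, a mitochondrial GTPase, changed by 0.84 and 0.79 and Ppm1b, a protein phosphatase, by 0.81 and 0.65. Cbx5, heterochromatin protein 1 alpha, changed by 0.67 and 0.59 and Setd7, a lysine methyltransferase, by 0.69 and 0.57. Slc30a9, a zinc transporter family member, changed by 0.69 and 0.54 and Lynx1 by 0.91 and 0.49.

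Below both references, Mrps16, a protein of the mitochondrial ribosome, was at 17.4, 27.5 and 16 CPM in members, 118, 65.7 and 76.7 in the marginal and 48.5, 58.9 and 43.9 in the intermediate reference. Its log2 fold changes were -1.62 (SE 0.35) and -1.39 (SE 0.31, edgeR, adjusted p = 0.00053 and 0.0006). Edf1, a transcriptional coactivator, was at 78.4, 112 and 70.5 CPM against 276, 152 and 203 and against 181, 192 and 165, and changed by -0.87 and -1.13. Ubb, ubiquitin B, was at 323, 381 and 336 CPM against 876, 460 and 748 and against 553, 525 and 417, and changed by -0.68 and -0.65. In all 3 genes every member sum was below every reference sum. The way genes were named favours this, and the share of all genes without overlap was not counted.

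Mrps16 rested on 20 member UMIs in all, Edf1 on 84 and Ubb on 322. Exosc4, an RNA exosome subunit, and Nit1 rested on 5 and 6 member UMIs. Supt4a, a transcription elongation factor, changed by -1.45 and -0.92, Elovl1, a fatty acid elongase, by -1.35 and -1.04, and Thoc2, an mRNA export factor, by -1.21 and -1.10. Sf3b5, a splicing factor subunit, changed by -0.95 and -0.87 and the uncharacterised 1810058I24Rik by -0.53 and -0.56. In the GENCODE vM21 annotation Exosc4, Nit1, Elovl1, Thoc2, Zfp367, Rhot2, Ppm1b and Setd7 overlap another gene on the opposite strand, as Kcnq1 does with Kcnq1ot1.

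**Figure D4:**
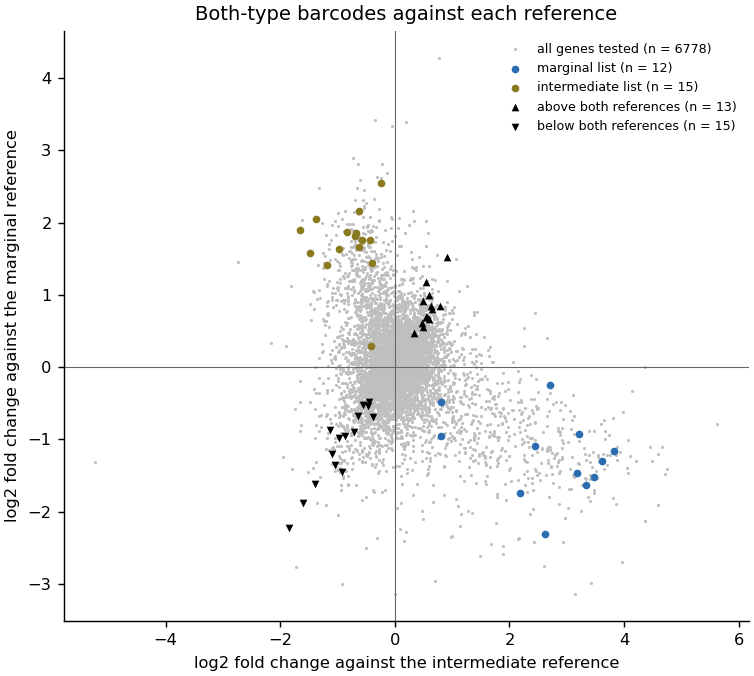
Log2 fold change of members against the marginal reference (y axis) and against the intermediate reference (x axis) for 6778 genes, 1 point per gene, with the marginal list (blue), the intermediate list (ochre) and genes called above or below both references (triangles). The 2 lists lie in opposite quadrants, and the 13 and 15 genes called outside both stand in the upper right and lower left.

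The second comparison asked which genes stood off a mixture. For each capture a weighted mean of the 2 references was built, and the weight of the marginal reference was taken from marginal and intermediate list genes outside the rule. That weight was 47.4% in capture 1, 38.3% in capture 2 and 31.4% in capture 3, or 39.0 ± 8.0% (SD, n = 3). Single genes behind it ran from -1.15 to 107% in capture 1, 9.14 to 73.3% in capture 2 and 2.58 to 69.1% in capture 3. Median UMIs of the references, added 1 to 1, would give 50.6, 57.4 and 58.0%. The measured marginal share was below the share of 1 median barcode of each type in all 3 captures. The rule sets part of this order, so nothing is read from it. Median M (60.5, 46 and 43 UMIs) and median I (21, 16 and 15) of the references stand near the ratio limit of 3. Barcodes with more marginal RNA than that limit allows could not be members. With the weights multiplied by the members' median UMIs, the marginal part equalled 69.5, 39.2 and 31.8% of a marginal reference barcode. The intermediate part equalled 79.2, 85 and 96.0% of an intermediate one. The same limit acts on these parts, so they describe the barcodes chosen and nothing is read from their inequality. With the stricter references the weights were 37.4, 31.3 and 26.6%, and in nuclei the weight was 43.4%, beside 47.5% from the medians of the references.

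Of the list genes that could be placed in all 3 captures, 13 of 15 lay between the references in each. The mean position, with 0% at the intermediate and 100% at the marginal reference, ran from 28.5% for Tacr3, the neurokinin 3 receptor, to 70.3% for Kcnj13, the Kir7.1 potassium channel, with a median of 38.1%. Heyl, a Notch target, lay outside them at 107% in capture 1, where only 8 members were summed. List genes placed in fewer captures are not in this range and lay as low as 2.58%. The list genes follow the same cells as the rule and also set the weight, so these positions are a description. The share of other genes between the references was not counted.

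Most genes did not pass the test against the weighted mean. Of 5617 genes, 23 (0.409%) were above it and 25 (0.445%) below (edgeR, adjusted p under 0.05), while 342 and 336 had an unadjusted p under 0.05. This count depended on the settings. It was 8 and 6 with DESeq2, 8 and 5 without the replicate block, 0 and 3 without capture 3, and 118 and 106 with the stricter references. With a ratio above 1/2 and below 2 it was 1 and 5, and with equal weights for the references 14 and 18. With equal weights, 8 results on named genes kept their call and 11 lost it. A p that misses the threshold does not show equality.

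Of the 23 genes above the weighted mean, 12 were higher in the marginal than in the intermediate reference, 3 were lower and 8 did not pass that test. Over all 5617 genes, 15.6% were higher in the marginal and 17.5% higher in the intermediate reference. This split depends on the weight. A higher weight would raise the mixture for genes higher in the marginal reference and lower it for genes higher in the intermediate one. The split at other weights was not counted, so nothing is read from it. Itpr1, an inositol trisphosphate receptor of the endoplasmic reticulum, was at 488, 636 and 714 CPM in members and at 360, 415 and 331 in the weighted mean (log2 fold change 0.73, SE 0.11, adjusted p = 0.0017). Dsp, desmoplakin, was at 139, 137 and 183 CPM against 78.1, 91.4 and 86.7 (0.78, SE 0.17, adjusted p = 0.02). Plce1, a phospholipase C, was at 244, 197 and 208 CPM against 120, 122 and 119 (0.77, SE 0.15, adjusted p = 0.0072). In these genes every member sum was above every weighted sum, which the way genes were named favours.

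Further genes above were Wwc1, a scaffold of the Hippo pathway (0.80), Znrf2, a ubiquitin ligase (0.72), Prom2, a prominin of membrane protrusions (0.67), and Rhoq, a small GTPase (0.67). Ids, Kif1c and Ghitm, named above both references, were also above the weighted mean by 0.80, 0.76 and 0.75. The rule for naming genes required the same sign in all 3 captures.

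Of the 25 genes below the weighted mean, 17 were higher in the intermediate than in the marginal reference, 2 were lower and 6 did not pass that test, beside the same 17.5% and 15.6% over all genes. The weight bears on this split as well, so nothing is read from it. Mlana, a melanosome protein, was at 174, 144 and 163 CPM in members against 243, 263 and 273 in the weighted mean (log2 fold change -0.78, SE 0.14, edgeR, adjusted p = 0.0036). Mlana is among the list genes whose median position set the weight, so this test is not independent of it. Gsta1, a glutathione transferase, was at 113, 114 and 106 CPM against 179, 180 and 175 (-0.71, SE 0.16, adjusted p = 0.027), and the array of related Gsta genes makes its count uncertain. Apoe, the lipid carrier apolipoprotein E, was at 244, 146 and 144 CPM against 282, 264 and 226 (-0.67), and its lowest weighted sum was below its highest member sum.

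Cited1, a transcriptional coregulator of melanocytes, had a log2 fold change of -0.85 and Mdfi, an inhibitor of MyoD family factors, of -1.30. Mrps16, Edf1 and Ubb, named below both references, were also below the weighted mean (-1.48, -1.03 and -0.67). Hba-a1, alpha globin of red blood cells, was at 43.6, 67.7 and 455 CPM against 64.2, 84.9 and 1102, so its size came mostly from capture 3, and reads can be split with its near-identical copy Hba-a2. In that capture the erythroid list had a median of 1618 CPM per member and 1822 CPM per intermediate reference barcode, while the summed values were 1579 and 3488 CPM. Dcn, decorin of fibrocytes, had 1 UMI in all members and was at 0.00, 0.00 and 3.20 CPM against 2.79, 25.9 and 42.2. The reference level came from few barcodes, since only 0.952% of intermediate reference barcodes in capture 2 and 0.391% in capture 3 held 5 or more UMIs of the fibrocyte list, whose median was 0.

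Transcript length differed between the 2 sets. By the longest annotated transcript, the median was 1051 bases for the 25 genes below the weighted mean, 4653 bases for the 23 above and 3623.5 bases for all 5614 genes with a length. Of the 25 below, 20 were in the shortest quartile of genes (up to 2212 bases), as was 1 of the 23 above. The median log2 fold change against the weighted mean was -0.12 in the shortest quartile and 0.08 in the longest (5204 bases or more). In single captures the longest quartile exceeded the shortest by 0.25, 0.16 and 0.19, and in nuclei by 0.05. Over the 14 other settings the difference stayed between 0.18 and 0.30. Genes are not independent replicates, so no test is given, and the part that depth, library or RNA quality had in it was not tested.

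**Figure D5:**
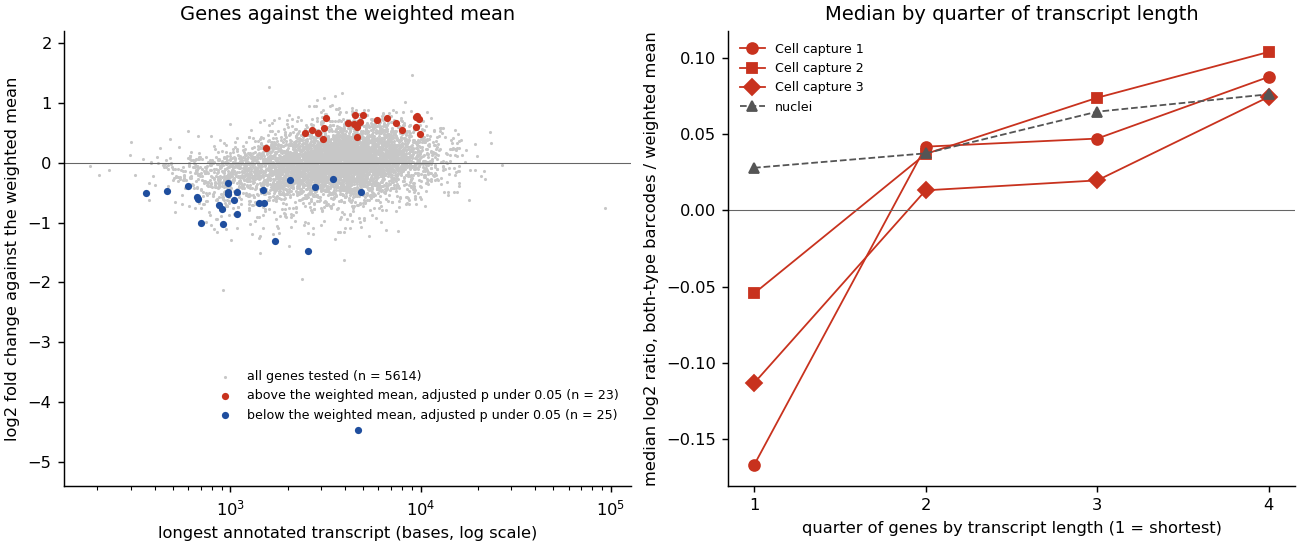
Left, log2 fold change of members against the weighted mean for 5614 genes by the length of the longest annotated transcript (bases, log scale), with the 23 genes above (red) and 25 below (blue) it; right, median log2 ratio of member CPM to weighted mean CPM (each plus 10) by quartile of transcript length in each cell capture and in nuclei. In the cell captures the shortest quartile lies at -0.17 to -0.05 and the longest at 0.07 to 0.10.

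Of the 74 members, 1 of capture 1 held 39 UMIs of pericyte genes (Rgs5 27), 13 of endothelial genes and 7 of macrophage genes. In the other members, each of these lists summed to at most 1 UMI in a capture. This member was singled out after its values were seen, and without it the weighted mean counts became 45 above and 42 below. Basal cell genes reached 5 or more UMIs in 14 members and up to 58, mostly of Cldn11, a claudin of the basal cell barrier, and spindle and root cell genes reached 5 or more in 3. B cell genes were at 0 UMIs in all members of the 3 captures, and a set of leukocyte genes never exceeded 1 UMI in a member. Hemoglobin genes reached 5 or more UMIs in 43 members, with a median of 5 and a highest value of 28. The captures differed in this. The erythroid list, which holds these genes, reached 5 or more UMIs in 25, 35.9 and 100% of members of captures 1, 2 and 3. In capture 3 the neutrophil list had 12 UMIs in the members and a UMI in 40.7% of them, beside 45.8% of marginal and 29.3% of intermediate reference barcodes. Whether RNA of other cells has a part in the results was not tested.

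Of 7 otic and neural crest regulators tested, 1 was higher and 2 lower in members than in the marginal reference, and 2 were higher and 2 lower than in the intermediate reference. Over all genes the shares were 6.14% and 4.50% against marginal, and 8.42% and 5.50% against intermediate. Pax2 and Gata3, transcription factors of otic epithelium, were lower than marginal (log2 fold changes -1.37 and -1.85) and higher than intermediate (2.72 and 3.40). Zeb2, a factor of neural crest derivatives, was higher than marginal (1.83) and lower than intermediate (-1.03). These 3 genes lay between the references.

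Of 11 adhesion and junction genes, 3 were higher and 2 lower than marginal, and 4 were higher and 2 lower than intermediate. Epcam, an epithelial adhesion protein, was at 209, 169 and 109 CPM in members, 300, 349 and 484 in the marginal and 8.66, 8.25 and 10.3 in the intermediate reference. F11r, a tight junction protein, was lower than marginal (-1.38) and higher than intermediate (3.44), and Gjb6, the gap junction protein connexin 30, was higher than marginal (1.20) and lower than intermediate (-0.75). Against the weighted mean 0 of 10 adhesion genes and 0 of 7 regulators passed, which is near the 0.409% above and 0.445% below over all genes.

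The same shares over all genes stand behind the adhesion counts and those of the other lists. Of 9 heat shock genes tested, 0 passed against marginal and 3 were higher than in the intermediate reference, which were Hsp90aa1 (0.61), Hsp90ab1 (0.46) and Hsph1 (1.02), with a list median of 0.31. Of 6 immediate-early genes, Jund and Dusp1 were lower than marginal (-0.70 and -0.78) and Dusp1 was higher than intermediate (0.88). Of 5 spindle and root cell genes, 2 were lower than marginal and 4 higher than intermediate (P2rx2, Slc26a4, Kcnj16 and Cldn6). These 4 were at 0 UMIs in members of captures 1 and 3, while 3 members of capture 2 held 41, 61 and 62 of the 179 UMIs of the list there. Of 2 Schwann cell genes, Mbp was lower than marginal and higher than intermediate, and Pmp22 the reverse. Of 4 erythroid genes, 1 was lower than intermediate, and of 2 fibrocyte genes, 1 (Dcn) was. None of 3 basal cell genes, 1 neutrophil gene, 1 cell cycle gene and 1 nuclear noncoding RNA passed either test. Xist was at 244, 190 and 387 CPM in members, against 200.0, 331 and 372 in the marginal and 242, 483 and 541 in the intermediate reference, and was lower than intermediate (-0.91, edgeR, adjusted p = 0.00059). Xist without Y-linked RNA was found in 3 of 8, 11 of 39 and 15 of 27 members of captures 1, 2 and 3, against 32 of 103, 173 of 315 and 157 of 256 intermediate barcodes and 6 of 12, 27 of 47 and 12 of 24 marginal ones. The gap was thus mainly in capture 2, and the part of the mix of sexes in other results was not tested. Endothelial, pericyte, macrophage and B cell genes were too rare to test.

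Other pairs of cell types were counted by the same rule, with 5 or more UMIs in each set and a ratio above 1/3 and below 3. Each count is given as a share of the barcodes that held either set at 5 or more UMIs and were of the pair or held one set at 3 or more times the other. Marginal with intermediate RNA gave the 74 members, or 6.90% of such barcodes. Intermediate with basal RNA was found in 50 barcodes (4.38%) and marginal with basal RNA in 18 (5.14%). Of these, 10 and 7 were themselves members, so the sets overlap. Set against the rarer of the barcode groups led by 1 set, the counts came to 81.3% for marginal with intermediate, 32.7% for intermediate with basal and 11.25% for marginal with basal RNA. No barcode paired any of these sets with the leukocyte set, which led in 33 barcodes. The 33 leukocyte barcodes were few and lay mostly in capture 3 (27), and these shares were not compared by a test.

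In nuclei, marginal with intermediate RNA gave 177 barcodes (3.77%). There, leukocyte RNA was paired with marginal RNA in 8 barcodes and with intermediate RNA in 5.

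Barcodes with hemoglobin at 20% or more of UMIs numbered 13 in capture 2 and 87 in capture 3, with medians of 9942 and 9996 UMIs, near the depth of members. Their median M and I were 0, and 0 of them held both sets at 5 or more UMIs. Only 9 of those in capture 3 also passed the Malat1 limit that members had to pass, with a median of 5625 UMIs, and 0 of these 9 held both sets. In nuclei, 4 of 159 such barcodes (2.52%) held both sets at 5 or more, counted without a limit on the ratio. Members, which also had to meet the ratio limit, were 2.71% of all nuclei that passed the limits on genes and Malat1.

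Doublet numbers were set beside the members. A nominal rate of 0.8% for every 1000 barcodes gives 1.23, 14.8 and 20.0 doublets of all kinds in captures 1, 2 and 3, which is 36.0 in all, beside 8, 39 and 27 members. Scrublet, which scores barcodes against simulated pairs, was set to mark this number of highest scores. It marked 4 of 74 members, 0 of 83 marginal and 12 of 674 intermediate reference barcodes. In nuclei, where the same rate gives 978, it marked 144 of 177 members, 342 of 2305 marginal and 70 of 653 intermediate reference nuclei. The number marked was fixed by the nominal rate, so these counts rank barcodes and do not measure a doublet rate.

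Animals were pooled and each whole-cell capture held RNA of both sexes. A barcode from 2 animals of different sex could thus carry Xist, the RNA of the inactive X chromosome, and Y-linked RNA together. With 2 or more Xist UMIs and 1 or more Y-linked UMI counted as present, 29 of the 74 members had Xist only, 30 Y-linked RNA only, 14 neither and 1 both, which is 1.35% (exact 95% interval 0.0342 to 7.30%). With 1 Xist UMI counted as present, 2 members (2.70%) had both, as did 18 of 674 intermediate (2.67%) and 3 of 83 marginal (3.61%) reference barcodes. At 2 UMIs, intermediate reference barcodes had both in 9 of 674, or 1.34% (0.612 to 2.52%), and marginal ones in 0 of 83. Of the 36 barcodes that Scrublet marked, 1 had both. The intervals of members and intermediate references overlap, and a pair of cells from 1 animal would not be seen. Xist was near 0 in nuclei, where the count cannot be read. With 2 or more UMIs it was found in 0 of 177 both-type, 0 of 2305 marginal and 0 of 653 intermediate reference nuclei. Y-linked RNA was found in 131, 1409 and 364 of these. Cells and nuclei thus differed in the sex-linked RNA found. The part of this in other differences between them was not tested.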

How the data were processed

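Raw UMI counts per gene and barcode were used as deposited, without normalization, for 3 whole-cell captures and 1 nucleus capture of the stria vascularis. The authors made them from 10x Genomics libraries with Cell Ranger 2.0.0 on mm10, per the submitters' processing notes. The study's methods state default settings and the mm10 reference supplied by 10x Genomics. The members and gene lists were chosen with earlier results of these data known, and so give no independent support to what was seen then.

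Barcodes of each group were summed per capture, which gave 9 sums. The 8 rule genes and Malat1 were kept in the library sizes but not tested. Sums were fitted with edgeR 4.0.16 (robust quasi-likelihood, TMM, filterByExpr) in R 4.3.3 with capture as a block, and p-values were adjusted by Benjamini-Hochberg at 0.05. Sums of 1 capture share a suspension, which is where the pairing comes from. Their deviations from the group means correlated at -0.01 to 0.27 over 9 pairs. The study's supplement counts mice separately for each capture, and every capture is 1 pool of animals. With capture as a block, p-values rest on how far the differences between groups vary over these 3 pools. For the weighted mean, the weight of a capture was the median position of list genes that differed by at least 3 times and 50 CPM between references. These positions use the member sums, so members and weighted mean are not independent.

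The genes named were the 10 with the largest smaller change of the 2 contrasts, or the largest change against the weighted mean, in each direction, with 1 sign in 3 captures and at least 30 UMIs in the higher group. Gene positions and lengths came from GENCODE vM21 (GRCm38). The fits were tested on simulated data. DESeq2 1.42.0 and Scrublet in scanpy 1.11.5 served as alternatives, and doublets were not removed otherwise. Thinning drew 2000 UMIs per barcode at random, and barcodes below that were left out. Intervals cover counting error only. The values of 1 list gene are not reported here.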

Additional observations from a re-analysis of the deposited data

How the results depend on the processing

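The limits include the 8, 39 and 27 members per capture and references that were mixed in part. Of 1316 alternative values of 102 results on named genes, 1082 kept their call, 234 lost it and 0 reversed. Without capture 3, 45 kept and 56 lost it, with the narrower ratio 58 and 41, and with equal weights 8 and 11. Members numbered 43 with a ratio above 1/2 and below 2 (both ends left out), 113 without the Malat1 limit, 46 with Malat1 at 2% or more, and 35 to 66 without 1 capture. UMIs were 169% of the intermediate reference without a floor on its sum, 156% without mitochondrial genes and 154% with the stricter references, which also gave 73.2% of the sum. Against marginal they were 102% without mitochondrial genes. Genes were 152% of intermediate without the floor and 108% after thinning. Against marginal they turned from 105% to 88.2% after thinning, 99.1% with means and 96.0% without capture 1, with up to 111% without another capture. The intermediate list was 94.2% without the floor and 103% without Dct, and the marginal list 33.8% without Slc12a2. With a minimum of 3 UMIs, 1 barcode joined intermediate and leukocyte sets.

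Counts are given as higher and lower. Against marginal (416 and 305) they were 229 and 161 with DESeq2, 268 and 600 without TMM, 265 and 187 with the narrower ratio, 669 and 506 with the stricter references (added after seeing the data), and 210 to 326 and 122 to 250 without 1 capture. Against intermediate (571 and 373), DESeq2 gave 129 lower, no TMM 866 and 171, the narrower ratio 376 higher, and leaving out 1 capture 345 to 483 and 179 to 289. Above both references (13) there were 0 with DESeq2, 8 without the filter, 8 with the narrower ratio, 21 without the floor, 48 with the stricter references and 0 to 13 without 1 capture. Below both (15) there were 5 with DESeq2, 9 without TMM, 37 with the stricter references and 4 to 18 without 1 capture.

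Against the weighted mean (23 and 25) the counts were 8 and 6 with DESeq2, 54 and 58 without mitochondrial genes, 1 and 5 with the narrower ratio, 45 and 42 without the member with pericyte UMIs (added after seeing the data), 38 and 40 with the weight from the rule genes, 118 and 106 with the stricter references, and 0 to 26 and 3 to 33 without 1 capture. A weight of 0.5 gave 14 higher, no filter 58 lower, and removal of the highest Scrublet scores 42 lower. The length difference was 0.30 with the stricter references, beside 0.21. The cause of these shifts was not tested.

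Without the replicate block the weighted mean counts were 8 and 5, and the others were 374 and 286 against marginal, 551 and 301 against intermediate, and 11 and 11 outside both.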
